A study of Mus musculus with 16 samples.

Results

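Insrr, the gene of the insulin receptor-related receptor, was followed here with 6 relatives of the insulin and insulin-like growth factor (IGF) system in mouse kidneys that had lost Hes1. The relatives are the receptor genes Insr, Igf1r and Igf2r, the ligand gene Igf1 and the binding protein genes Igfbp3 and Igfbp5. Members were taken by gene symbol from the first deposited count table, where each of the 7 symbols had 1 row among 28971 genes. All 7 passed the filter on low counts, which kept 15615 genes. The set was put together with the contrast of Hes1 cKO against control already known, and so selected on the log2 fold change and calls of these libraries; the values of that contrast are given below as a description and no test is drawn from them.

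The series examined whole-kidney RNA of Hes1 cKO mice, with Pax8-rtTA, TRE-Cre and Hes1 f/f alleles, and of wild type control littermates. Pax8-rtTA acts in the tubule epithelium along the nephron and collecting duct and not in one cell type, and doxycycline switches on Cre there. Both groups drank doxycycline (1 mg/mL) with 5% sucrose for 1 week from 3 weeks of age, and the alleles that the controls carried beyond the label wild type are not given in the labels. The titles name 7 Hes1 cKO and 9 control kidneys, while the series text gives these numbers the other way round; the 7 libraries used here, 3 Hes1 cKO and 4 control, are those of the table whose columns show a genotype. The library numbers below only name columns, and values are listed in their order, 1 to 3 and 1 to 4. The labels do not say that each library is a separate animal, so the spread between libraries may be technical in part.

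The insulin receptor and the IGF1 receptor are tyrosine kinases at the cell surface that act through insulin receptor substrates and PI3-kinase. The insulin receptor-related receptor is built like them but binds neither insulin nor IGFs; it is activated by alkaline extracellular fluid. In the kidney it is found in type B intercalated cells of the collecting duct, which secrete bicarbonate through pendrin, the product of Slc26a4. The IGF2 receptor is of another protein family and carries IGF2 and lysosomal enzymes to the lysosome, and the IGF binding proteins hold IGFs outside the cell.

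Total counts were 16973931 to 20420422 per library. Hes1 was at 17.2 to 19.8 CPM (read counts scaled to library size, here by the TMM method) in the Hes1 cKO libraries and at 42.8 to 67.6 CPM in the controls without overlap. The labels do not name the deleted part of the gene. Xist, which is transcribed from the inactive X chromosome of females, was high in 3 libraries (Hes1 cKO 3, control 3 and control 4, 333 to 367 CPM) and at most 0.371 CPM in the other 4. Both groups thus held libraries of each kind. For the whole series the labels give 4 female and 3 male Hes1 cKO samples and 3 female and 6 male control samples. The columns used here could not be matched to single samples, so sex was not taken from the labels. Markers of kidney tubule were abundant. The summed level of 7 proximal tubule genes was 7174.4 to 7737.8 CPM in Hes1 cKO and 7942.8 to 10332.5 CPM in control, without overlap. All 7 had a log2 fold change below 0, with a median of -0.21, and 0 passed an edgeR adjusted p under 0.05.

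Insrr was the 1 member whose level differed clearly between the groups. The 3 Hes1 cKO libraries read 151, 160 and 165 CPM. The 4 controls read 36.3, 49.9, 42.9 and 54.4 CPM. The groups did not overlap, and the lowest Hes1 cKO library lay 2.78-fold above the highest control. The means were 158.7 ± 7.20 CPM (SD, n = 3) and 45.9 ± 7.94 CPM (SD, n = 4). This is a difference of 1.79 on the log2 scale (SE 0.13), or 3.46-fold, with a 95% interval of 2.82- to 4.24-fold. In whole-kidney RNA, more cells of a type and more RNA per cell cannot be told apart, nor can fewer and less. Among all tested genes this log2 fold change ranked 25 from the highest. The spread was small in Hes1 cKO, with a coefficient of variation of 4.54% where counting alone gives 1.84%, and wider in control, at 17.3% where counting gives 3.49%. High Xist did not go with the level of this gene: the 3 libraries with high Xist held the highest value of both groups and the second lowest of the controls.

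**Figure D1:**
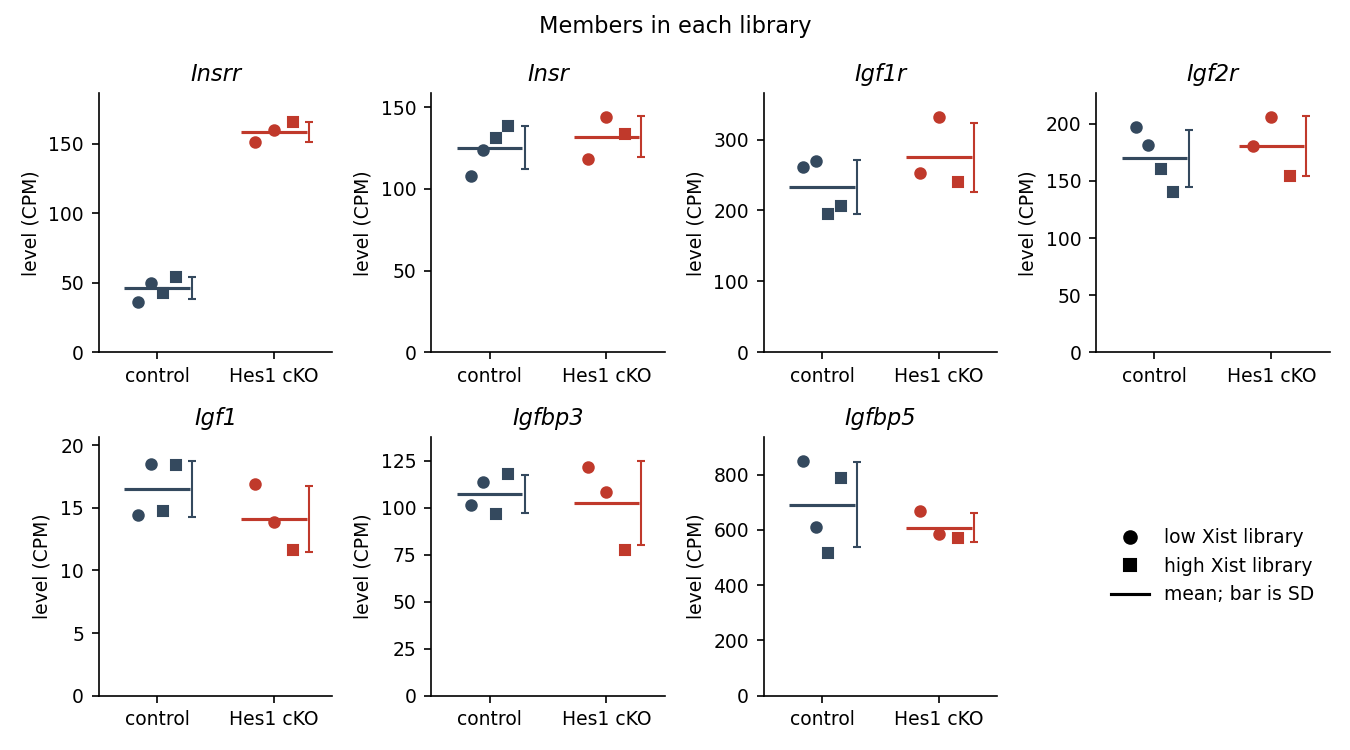
Level of each member in CPM (vertical axes start at 0) in the 4 control and 3 Hes1 cKO libraries; squares are libraries with high Xist, lines are means and bars are SD. Insrr is at 36.3 to 54.4 CPM in control and at 151 to 165 CPM in Hes1 cKO, while the groups overlap for the other 6 genes.

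Of the 7 members, 1 (Insrr) was called by edgeR's quasi-likelihood test at an adjusted p under 0.05, beside 0.339% of all tested genes (0.32% higher and 0.0192% lower in Hes1 cKO). The groups did not overlap for the same 1 member, beside 7.01% of tested genes (3.71% with Hes1 cKO higher and 3.29% with it lower). As the set was built on this contrast, nothing is read from these shares. The other 6 members were not called, with edgeR adjusted p of 0.938 to 0.989. Of the 7 log2 fold changes, 4 were above and 3 below 0, with a median log2 fold change of 0.08 beside -0.01 over all tested genes.

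Insr encodes the insulin receptor itself. The Hes1 cKO libraries read 119, 144 and 134 CPM, the controls 108, 124, 131 and 138 CPM. The groups overlapped almost entirely. Its log2 fold change was 0.08 (SE 0.11), with a 95% interval of 0.891- to 1.25-fold. It moved to 0.0088 without Hes1 cKO 2, to 0.010 without control 1, to 0.15 without Hes1 cKO 1 and to 0.13 without control 4. The fold of Insrr lay outside this interval.

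Igf1r encodes the receptor for IGF1. The Hes1 cKO libraries stood at 253, 331 and 240 CPM and the controls at 261, 270, 195 and 207 CPM. The highest library was Hes1 cKO 2, and the others interleaved. The log2 fold change was 0.24 (SE 0.15), with a 95% interval of 0.931- to 1.49-fold. Without Hes1 cKO 2 it was 0.08.

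Igf2r, which sorts IGF2 to the lysosome, read 181, 206 and 155 CPM across the Hes1 cKO libraries. The controls were at 197, 182, 161 and 140 CPM. The highest library was in Hes1 cKO and the lowest in control, and the groups overlapped over most of their range. The log2 fold change was 0.09 (SE 0.14), with a 95% interval of 0.859- to 1.31-fold, and it was -0.02 without Hes1 cKO 2.

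The level of Igf1r and Igf2r, but of no other member, separated the libraries with high Xist from the rest. For Igf1r the 3 libraries with high Xist were at 195 to 240 CPM, all below the 253 to 331 CPM of the other 4. For Igf2r they were at 140 to 161 CPM, below 181 to 206 CPM. Such an order, with all 3 below, was met in 5.95% of tested genes. Both genes kept that order when libraries were scaled by total counts, where 5.1% of genes showed it. This split was looked at after the values had been seen and was not tested. With Xist as a covariate the log2 fold change of Hes1 cKO against control was 0.19 for Igf1r and 0.03 for Igf2r (edgeR adjusted p 0.813 and 0.968).

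Igf1, the ligand of the IGF1 receptor, had the lowest counts of the set, 198 to 350 reads per library. The Hes1 cKO libraries read 16.9, 13.9 and 11.6 CPM, the controls 14.4, 18.5, 14.8 and 18.4 CPM. The lowest 2 values were in Hes1 cKO libraries, but Hes1 cKO 1 lay above control 1 and control 3. On the log2 scale Igf1 differed by -0.22 (SE 0.16), with a 95% interval of 0.671- to 1.09-fold. That difference was -0.10 without Hes1 cKO 3 and -0.37 without Hes1 cKO 1.

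Igfbp3, whose product carries most IGF in blood, read 121, 108 and 77.5 CPM across the Hes1 cKO libraries. The controls were at 101, 114, 96.5 and 118 CPM. Hes1 cKO held both the highest and the lowest library. For Igfbp3 the log2 fold change was -0.07 (SE 0.15; 95% interval 0.758- to 1.20-fold), and 0.10 without Hes1 cKO 3.

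Hes1 cKO 3 was the lowest library for Igf1 and for Igfbp3. It was also the lowest for the summed level of 8 endothelial markers, at 340 CPM against 437 to 549 CPM in the other 6 libraries. The summed level of 8 stromal markers was 336 CPM there, against 357 to 716 CPM elsewhere. The part of these cells in the levels of Igf1 and Igfbp3 was not tested.

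Igfbp5 was the most abundant member. The Hes1 cKO libraries read 669, 585 and 571 CPM, the controls 850, 610, 517 and 786 CPM. The 3 Hes1 cKO values lay inside the range of the controls, which spread widely (22.3% of their mean, where counting gives 0.904%). For Igfbp5 the log2 fold change was -0.18 (SE 0.17), with a 95% interval of 0.680- to 1.14-fold. The value was -0.07 without control 1, -0.11 without control 4 and -0.30 without control 3.

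**Figure D2:**
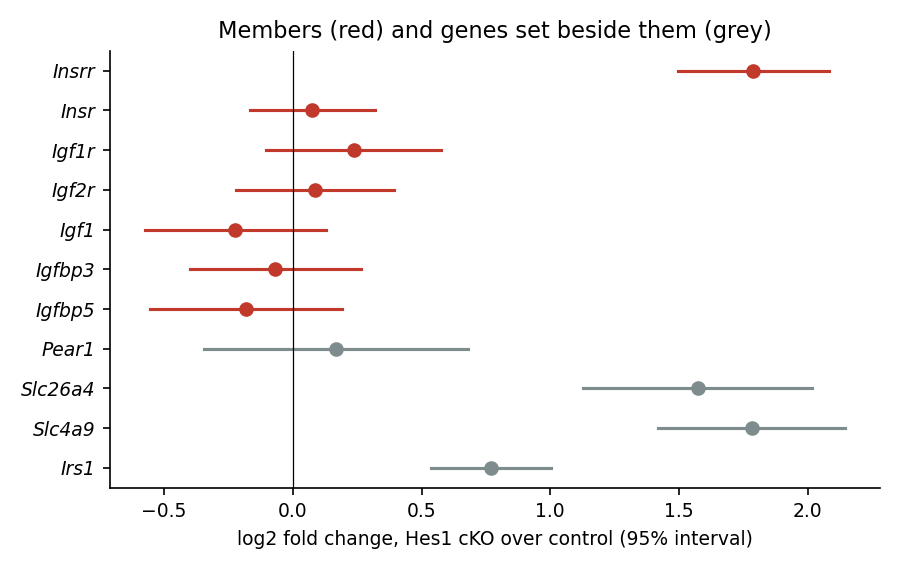
Log2 fold change of Hes1 cKO over control with its 95% interval, for the 7 members (red) and for neighbouring or related genes (grey). The interval of Insrr lies wholly above 0, and those of the other 6 members include 0.

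Levels of different genes were compared as CPM per kb of exon, the union of the exons of a gene in GENCODE M21. In control the order of the means was Igfbp5 (115 ± 25.7 CPM per kb, SD, n = 4), Igfbp3 (34.3 ± 3.23), Igf2r (18.3 ± 2.67), Igf1r (13.9 ± 2.24), Insr (9.12 ± 0.952), Insrr (8.03 ± 1.39) and Igf1 (1.67 ± 0.227). The neighbours Igf2r and Igf1r, and Insr and Insrr, overlapped in their ranges over libraries. Insrr ranked 6 of 7 in every control library.

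In Hes1 cKO the level of Insrr was 27.8 ± 1.26 CPM per kb (SD, n = 3), above Igf2r at 19.4 ± 2.79 and Igf1r at 16.4 ± 2.93. It ranked 3 in Hes1 cKO 1 and 2 and 2 in Hes1 cKO 3, where it passed Igfbp3. The ranges of Insrr (26.4 to 28.9) and Igfbp3 (24.8 to 38.8 CPM per kb) overlapped. The ranks of Insrr were the same in each library when the longest transcript was used as the length.

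**Figure D3:**
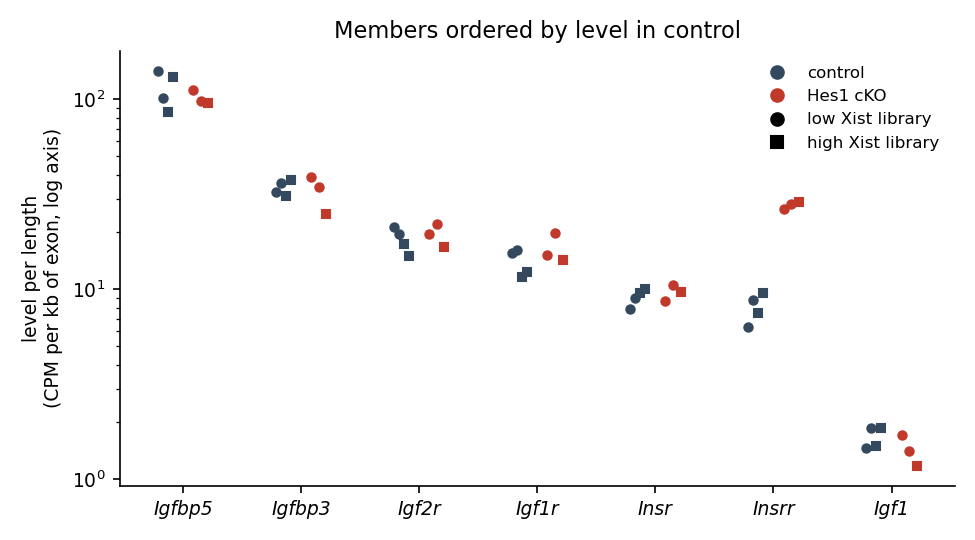
Level per length (CPM per kb of exon, log axis) of each member in each library, ordered by the control mean; squares are libraries with high Xist. Insrr lies beside Insr in control, at 6.35 to 9.52 CPM per kb, and at 26.4 to 28.9 CPM per kb in Hes1 cKO.

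Among the 3 genes of the insulin receptor family, transcripts of Insrr made up 25.8% ± 3.47 (SD, n = 4) of the summed level per length in control and 51.8% ± 3.38 (SD, n = 3) in Hes1 cKO. The control libraries ranged from 21.4% to 29.9% and the Hes1 cKO libraries from 48.1% to 54.6%. Igf1r went from the largest share in control, 44.7% ± 6.32, to 30.3% ± 3.45, and Insr from 29.5% ± 3.47 to 17.9% ± 0.579, with their own levels within the intervals given above. Summed, the 3 genes stood at 31.0 ± 2.30 CPM per kb in control and at 53.8 ± 4.08 CPM per kb with Hes1 deleted. With the longest transcript as the length, the share of Insrr in Hes1 cKO was 45.0% ± 3.34. These shares are over whole-kidney RNA and do not say that the 3 receptors share a cell.

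The level of Insrr was set beside other genes of type B intercalated cells. Of 5 such genes, Slc26a4 (pendrin), Slc4a9 (a bicarbonate transporter of the basolateral membrane), and the transcription factor genes Hmx2 and Hmx3 were called higher. Their log2 fold changes were 1.57 (SE 0.20), 1.78 (SE 0.16), 2.44 (SE 0.16) and 2.63 (SE 0.29), with edgeR adjusted p of 0.0104, 0.00283, 6.34e-04 and 0.00447. Slc26a4 did not pass when Hes1 cKO 2 was left out (edgeR adjusted p 0.0693). The fifth, Oxgr1, a receptor for oxoglutarate, was not called, with a log2 fold change of 0.29 (SE 0.15). The summed level of the 5 genes was 587 to 718 CPM in Hes1 cKO and 164 to 247 CPM in control.

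Per count of Slc26a4 and Slc4a9 together, Insrr overlapped between the groups. Hes1 cKO libraries gave ratios of 0.263, 0.276 and 0.347, the controls 0.296, 0.268, 0.253 and 0.285. The means were 0.295 ± 0.0455 (SD, n = 3) and 0.276 ± 0.0191 (SD, n = 4), and the groups overlapped. The quotient of the means was 1.07, and 0.976 without Hes1 cKO 3, the library with the highest ratio. Per count of Foxi1, the transcription factor gene of intercalated cells, the mean ratio in Hes1 cKO was 1.34 ± 0.202, against 1.41 ± 0.211 in control. Foxi1 had the largest log2 fold change, 1.87, of 7 genes listed for both intercalated types. The median of that list was 1.02 and its lowest value -0.09, with 6 genes higher, 1 lower and 5 called higher. The ratio to Foxi1 thus does not stand for Insrr against that list.

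**Figure D4:**
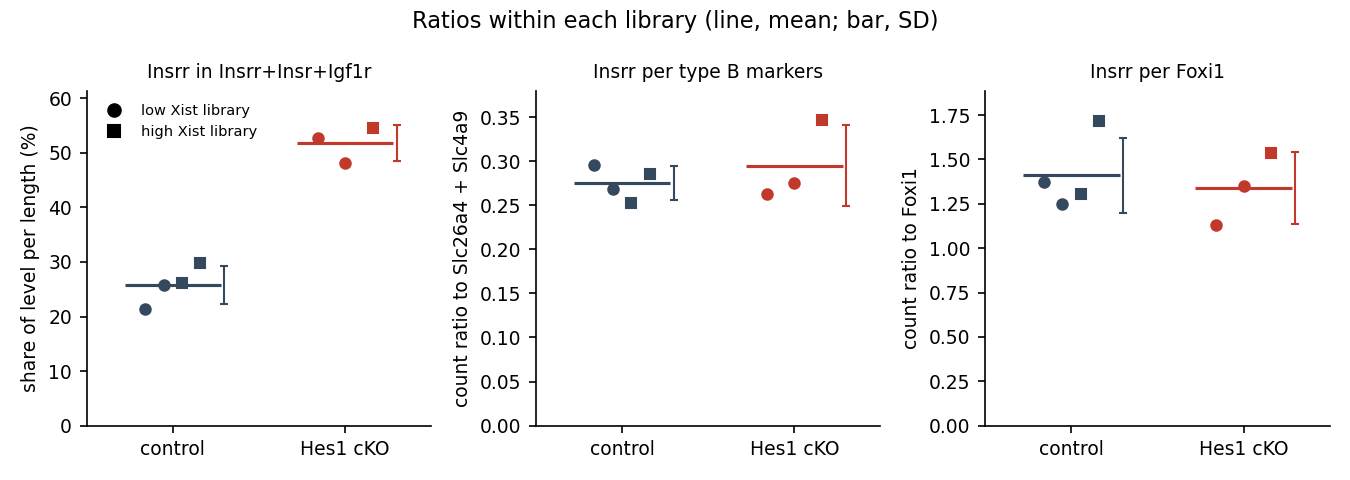
Ratios within each library: Insrr as a share of the summed level per length of Insrr, Insr and Igf1r (left), Insrr counts per count of Slc26a4 plus Slc4a9 (middle), and Insrr counts per count of Foxi1 (right); lines are means, bars SD, squares libraries with high Xist. The share separates the groups (21.4% to 29.9% against 48.1% to 54.6%), while both other ratios overlap.

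The level of 7 type A intercalated genes was also above control, by less. Its sum was 476 to 503 CPM in Hes1 cKO and 286 to 395 CPM in control, its median log2 fold change being 0.51 with 1 call (Kit, a receptor tyrosine kinase gene). The summed level of 10 principal cell genes was 1009 to 1500 CPM in Hes1 cKO and 1576 to 2280 CPM in control. These lists were written with earlier results of these data known, and their part in the level of Insrr was not tested.

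The genes whose profile over the 7 libraries was most like that of Insrr were Foxi1, Slc4a9, Syt7, Slc26a4 and 4930469K13Rik. Likeness was the root mean square difference of log2(CPM + 1) values, each centred on the mean of its gene, over 14143 genes with a mean of at least 1 CPM. It was 0.179 for Foxi1, 0.190 for Slc4a9, 0.206 for Syt7, 0.210 for Slc26a4 and 0.215 for 4930469K13Rik, where the median gene stood at 0.913. Syt7, a synaptotagmin gene of vesicle exocytosis, read 41.4, 32.0 and 43.5 CPM across the Hes1 cKO libraries, while the controls lay at 10.3 to 11.7 CPM. Since Insrr was chosen for its difference between the groups, genes with a like difference come first in this order.

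Insrr (ENSMUSG00000005640) lies on the plus strand of chromosome 3, from 87796951 to 87816101 (GRCm38, GENCODE M21). Pear1, on the minus strand from 87747890 to 87824306, spans the whole of Insrr. No exon base of Insrr is shared with an exon of Pear1 or any other annotated gene. The same held for the exons of the other 6 members. The strand setting of the counting is unknown here, so reads from introns of one gene over exons of another were not separated. Pear1, which overlaps Insrr, was at 22.9 to 48.1 CPM in Hes1 cKO and 28.5 to 40.8 CPM in control, with a log2 fold change of 0.17 (SE 0.23), and Sh2d2a, the nearest coding gene downstream, had at most 0.329 CPM.

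Other genes of the pathway were taken from 5 lists, of which 74 of 81 genes were tested. Of these, 1 (1.35%) was called, where 0.339% of all tested genes were. An unadjusted edgeR p under 0.05 was reached by 6 (8.11%), where 5.95% of all tested genes reached it. The called gene was Irs1, which encodes a docking protein that the insulin and IGF1 receptors phosphorylate. Levels in the Hes1 cKO libraries were 32.1, 32.9 and 29.1 CPM, the controls 19.3, 16.2, 18.5 and 19.7 CPM. The groups did not overlap, which was so for 7.01% of all tested genes. Irs1 rose by 0.77 on the log2 scale (SE 0.10) with an edgeR adjusted p of 0.0164. Leaving out any of 3 libraries ended this call: the edgeR adjusted p became 0.0984 for Hes1 cKO 1, 0.113 for Hes1 cKO 2 and 0.0517 for control 3. Irs1 is 1 of 25 tested genes downstream of the receptors (substrates, PI3-kinase subunits, Akt kinases, FoxO factors), of which 21 were above and 4 below 0, where 48.4% of all tested genes were above 0. The median of this list was 0.10 on the log2 scale, and 0.04 without Hes1 cKO 2, beside -0.01 over all tested genes.

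Of 18 further genes of the IGF axis, such as ligands, binding proteins and their proteases, 14 were tested, and 7 were higher and 7 lower with no call and a median log2 fold change of -0.02. The ends of this list were Igfbp2 (0.88, SE 0.37, edgeR adjusted p 0.805) and Pappa (-0.31, SE 0.19), a protease gene that acts on IGF binding proteins. Ins2, an insulin gene, and Igf2 did not pass the filter on low counts. Of 17 genes for phosphatases, adaptors and other proteins that act on the receptors, 10 were higher and 7 lower with no call, from Grb14 (-0.33, SE 0.15) to Socs3 (1.06, SE 0.33, edgeR adjusted p 0.607). Socs3, a suppressor of cytokine and insulin signalling, was highest in Hes1 cKO 1. Grb10, an adaptor that restrains both receptors and is named here after its values were seen, was at 49.6 to 64.8 CPM in Hes1 cKO and 40.7 to 48.0 CPM in control, with an edgeR adjusted p of 0.497.

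Of 12 genes known as targets of FoxO factors or of insulin, 4 were higher and 8 lower with no call, between Bcl6 (-0.54, SE 0.45) and Pck1 (0.29, SE 0.16), the gene of a gluconeogenic enzyme. Of 9 genes for other sensors of extracellular pH or bicarbonate, 6 were tested and none was called, with log2 fold changes from -0.35 (Adcy10, the bicarbonate-sensitive adenylyl cyclase) to 0.34 (Asic2, an acid-sensing channel).

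**Figure D5:**
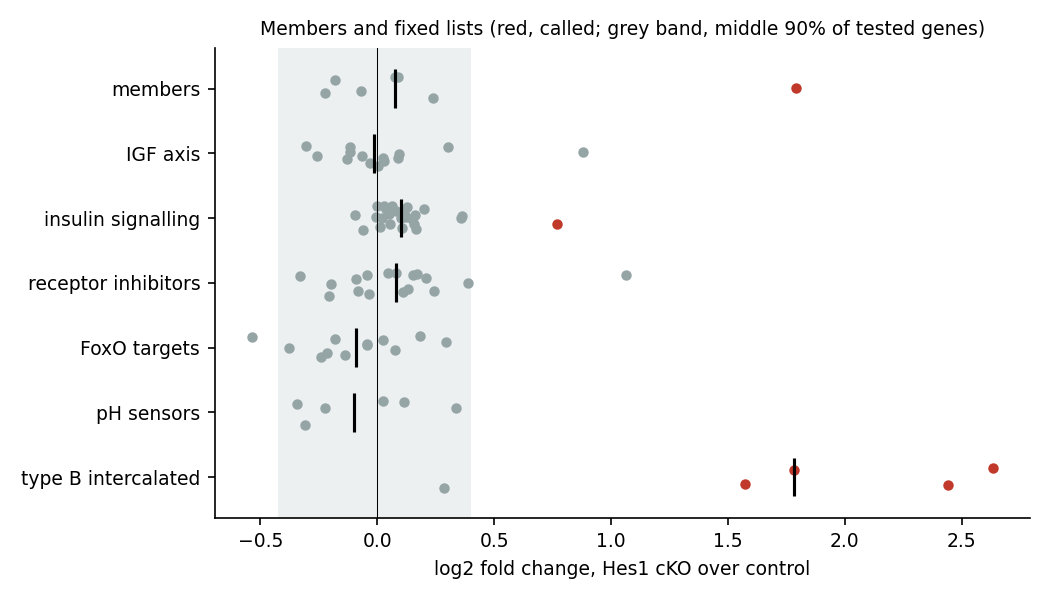
Log2 fold change of Hes1 cKO over control for the members, the 5 pathway lists and the type B list; red points are called, black bars are medians and the grey band holds the middle 90% of tested genes (-0.42 to 0.40). Insrr, at 1.79, lies within the range of the type B genes, 0.29 (Oxgr1, inside the band) to 2.63 (Hmx3). The pathway lists lie mostly inside the band. The members and lists were chosen with earlier results of these data known.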

How the data were processed

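RNA was measured by sequencing of whole kidneys, as read pairs of 150 bp per the labels. The authors deposited raw read counts per gene, and the submitters' processing notes name FastQC, STAR and DESeq2 and the build GRCm38 (mm10), without versions; the sources used here do not name the counting program, annotation or strand setting. A second table, with 9 columns whose names show no genotype, was not used. Of the 28971 genes, 4690 had no symbol. Counts of 3 Hes1 cKO and 4 control libraries were scaled by TMM, filtered with filterByExpr (minimum count 10) and tested with edgeR 4.0.16 (quasi-likelihood, Benjamini-Hochberg over 15615 genes, threshold 0.05) in R 4.3.3. The p-values set the difference between the groups only against the spread between these libraries. For each gene that spread was estimated in part from all tested genes. DESeq2 1.42.0 and limma-voom (limma 3.58.1) were among the alternatives. Genes named are the 7 members, the called genes of each list or, with no call, its ends, the 5 genes nearest to Insrr in profile, and neighbours in the annotation (GENCODE M21); not every such gene is reported here. The members and lists were chosen with earlier results of these data known. Intervals are 95% intervals of the fit.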

Additional observations from a re-analysis of the deposited data

How the results depend on the processing

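Of 15615 tested genes, 53 were called; 130 were called by the DESeq2 Wald test (96 higher and 34 lower) and 102 with no filter on low counts. The other changes of scaling, test, filter or covariate gave 50 to 66. With 1 library fewer, the count ranged from 25 when Hes1 cKO 2 was dropped, and 27 for Hes1 cKO 1, up to 47 when it was control 2. Insrr was called in 14 of 14 alternatives, with log2 fold changes of 1.69 to 1.88, and each of the other 6 members in 0 of 14. With 1 library left out, the log2 fold change of Igf2r ranged from -0.020 (Hes1 cKO 2 dropped) to 0.19 and that of Igfbp3 from -0.21 to 0.10 (0.097 with Hes1 cKO 3 dropped), each turning its sign in that 1 case; the cause was not tested. The ratio of Insrr to Slc26a4 and Slc4a9, Hes1 cKO over control, was 0.976 to 1.13 when 1 library was left out. By longest transcript, Igf1r stood above Igf2r (20.4 against 19.1 CPM per kb in control, 24.1 against 20.3 in Hes1 cKO), the reverse of their order by union of exons. No paired analysis was possible, since the titles and column names do not tell which Hes1 cKO and control libraries came from the same litter. The columns also carry no replicate numbers of the titles. The intervals given for the relatives do not show that these genes were the same in both groups.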

Other observations

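Neighbours of the IGF genes showed values of their own, chosen here after they were seen. Pgpep1l, which starts 2941 bases beyond Igf1r, was at 0.106, 0.148 and 0.176 CPM in Hes1 cKO 1, 2 and 3 and at 0.860, 0.741, 0.768 and 0.655 CPM in control 1, 2, 3 and 4. The groups did not overlap, but the gene was not called (edgeR adjusted p 0.0570) and its level was near the limit of detection. Igfbp1, a binding protein gene 3539 bases from Igfbp3, was at 22.1 to 23.8 CPM in the 3 libraries with high Xist and at 4.02 to 7.52 CPM in the other 4. Airn, an antisense RNA gene that overlaps Igf2r, was at 2.34 ± 0.209 CPM (SD, n = 3) in Hes1 cKO and 2.35 ± 0.353 CPM (SD, n = 4) in control.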
